A study of Homo sapiens with 16 samples.

Results

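The 6 loci described here are the surroundings of DUSP6, DUSP4, SPRY2, SPRY4, ETV5 and PHLDA1 in IMR-90 human lung fibroblasts that carry ER:Ras, an inducible fusion of oncogenic Ras to the estrogen receptor that 4-hydroxytamoxifen (4-OHT) switches on. Accessible chromatin was mapped by ATAC-seq, in which the Tn5 transposase inserts sequencing adapters into open DNA, and each of 16 libraries came with its own list of peaks. Every peak within 50 kb of the hg19 position of 1 of the 6 genes was taken, and overlapping peaks were merged into regions. That gave 59 of the 153040 regions of the 10 paired-end libraries and 43 of the 103322 regions of the 6 single-end libraries. The rule uses gene positions and no accessibility value, but the 6 genes were chosen with earlier results of these data known.

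All libraries come from 1 cell line, and all received an siRNA. The control siRNA was given to 2 paired-end libraries named Pro, which had no 4-OHT, and to 4 paired-end and 2 single-end libraries named Sen, which had 100 nM 4-OHT for 6 days and thus oncogene-induced senescence. The remaining groups had the same 4-OHT treatment with another siRNA: 2 paired-end libraries each for siFOXF1/2 and for a JUN-family knockdown, and 2 single-end libraries each for sip300/CBP and sip65. The JUN-family libraries are titled as a cJUN and JUND knockdown while their treatment label also names JUNB, and the Pro libraries carry the same cell-type label as the Sen libraries, so Pro was taken from the title. No label says whether libraries of 1 group came from separate cultures, so their spread may be technical. Peak lists hold no RNA or protein, and neither the knockdowns nor fibroblast markers were checked here. Because the drug drives ER:Ras, effects of the drug, of Ras activity and of senescence cannot be told apart in Sen.

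Ras signals through RAF and MEK to the kinase ERK, and active ERK induces its own brakes. The dual-specificity phosphatases DUSP6, which is cytoplasmic, and DUSP4, which is nuclear, remove the activating phosphates from ERK-family kinases, while the Sprouty proteins SPRY2 and SPRY4 restrain signalling upstream of ERK. ETV5 is an ETS-family transcription factor that the pathway induces, and PHLDA1 is an immediate-early gene with a pleckstrin-homology-like domain. This gene group is widely read as an output of ERK activity. The wider set of pathway genes was not analysed here.

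The promoter sequences are shown because the start sites of all 6 genes had a peak in every paired-end library, as 17 distal regions also did. The RefSeq promoter table of build GRCh38.p14 matched 4 of the 6 genes (DUSP6, SPRY2, SPRY4 and PHLDA1), with no entry for DUSP4 or ETV5. Each line gives the 250 bases before the listed start on the minus strand, 5′ to 3′, at chr12:89352502-89352751 for DUSP6, chr13:80341127-80341376 for SPRY2, chr5:142324248-142324497 for SPRY4 and chr12:76031777-76032026 for PHLDA1. For SPRY2, the farthest upstream of 3 entries was used. Capitals mark matches to 3 short motifs on either strand: the ETS core CCGGAA, the GC box GGGCGG and the CCAAT box.
DUSP6: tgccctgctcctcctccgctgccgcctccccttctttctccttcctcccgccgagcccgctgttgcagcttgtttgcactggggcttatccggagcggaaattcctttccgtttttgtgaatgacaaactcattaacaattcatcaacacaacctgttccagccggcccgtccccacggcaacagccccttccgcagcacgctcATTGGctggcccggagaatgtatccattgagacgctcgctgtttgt
SPRY2: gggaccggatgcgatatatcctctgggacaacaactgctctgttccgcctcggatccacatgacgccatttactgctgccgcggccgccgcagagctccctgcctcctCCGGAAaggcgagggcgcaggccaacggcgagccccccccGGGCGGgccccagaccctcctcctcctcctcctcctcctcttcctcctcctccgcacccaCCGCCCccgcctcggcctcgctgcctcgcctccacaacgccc
SPRY4: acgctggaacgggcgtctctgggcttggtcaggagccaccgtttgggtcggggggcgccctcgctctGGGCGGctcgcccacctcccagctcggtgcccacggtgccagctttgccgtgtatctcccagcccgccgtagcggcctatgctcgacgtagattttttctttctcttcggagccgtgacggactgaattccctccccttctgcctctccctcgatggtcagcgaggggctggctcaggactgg
PHLDA1: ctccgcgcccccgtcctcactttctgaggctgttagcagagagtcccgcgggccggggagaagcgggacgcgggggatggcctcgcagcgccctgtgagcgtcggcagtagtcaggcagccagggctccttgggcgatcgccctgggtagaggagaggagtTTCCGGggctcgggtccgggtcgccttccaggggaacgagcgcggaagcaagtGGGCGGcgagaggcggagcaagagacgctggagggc
The ETS core lay 89 bases before the PHLDA1 start and 142 bases before the SPRY2 start, and 14.5% of all 35116 promoters in the table hold it in a window of this length. A GC box was found in the SPRY2, SPRY4 and PHLDA1 windows and in 42.6% of all promoters. The CCAAT box, found in 32.0% of all promoters, lay 46 bases before the DUSP6 start. The AP-1 motif (TGACTCA or TGAGTCA, in 4.20% of all promoters) and the forkhead motif (TGTTTAC, in 2.98%), named for the factor families knocked down here, matched none of the 4 windows. Neither did CRE (1.65%), CArG (1.16%), NF-kB (5.21%) nor the longer ETS motif CCGGAAG (8.52%), all searched on both strands. The GC content of the windows was 57.2% for DUSP6, 65.6% for SPRY4 and 70.4% for both SPRY2 and PHLDA1, against a table median of 58.0%. The ETS core, GC box and CCAAT box were added to the search after the data had been seen.

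Peaks are named below by their distance from the gene position, measured to the middle of the region. All 6 genes lie on the minus strand, so upstream means a higher hg19 coordinate, and the downstream side holds the gene itself. Exon and intron boundaries in hg19 were not used here. In RefSeq the neighbouring protein-coding genes are KITLG and POC1B-DUSP6 for DUSP6, NDFIP1 and FGF1 for SPRY4, and KRR1 and NAP1L1 for PHLDA1, and which gene a distal region serves was not tested. The level of a peak is its summit pileup, the number of fragments or reads over its highest point, divided by the genome-wide background coverage of that library. A region with a peak in every library of both groups is called kept. It is called opened or closed when a peak is present in every library of 1 group and in none of the other. A missing peak is not a level of 0, so opened and closed are calls about the lists. Because the typical kept region also shifted between groups, log2 differences are given relative to all kept regions of the same comparison, after dividing each library by its median ratio over them. The order of the libraries was read on 3 scales: level over background, level scaled on kept regions, and the fold enrichment over local background that the authors deposited. In bulk cells, fewer cells with an open site and a less open site in each cell cannot be told apart.

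The lists held 60156 to 108298 peaks in the paired-end libraries and 17880 to 71155 in the single-end libraries, and the total read depth is unknown. Genome-wide background coverage was 1.74 to 3.08 fragments in the paired-end and 0.195 to 0.475 reads in the single-end libraries. The lowest level that could be listed where the local background is no higher was 4.58 to 6.31 in the paired-end and 14.7 to 25.7 in the single-end libraries. Among the 4 paired-end Sen libraries, the names of the peaks in replicates 1 and 2 follow 1 style, shared with Pro and siFOXF1/2, and those in replicates 3 and 4 another, shared with the JUN-family knockdown. Where these pairs differ, the values are given for each library.

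Across the 10 paired-end libraries, DUSP6 had 13 regions, SPRY4 14, SPRY2 10, DUSP4 9, PHLDA1 9 and ETV5 4. A peak was present in all 10 libraries at 23 of the 59 regions (39.0%), compared with 24.8% of all regions. The 6 start-site regions, 1 per gene, were among these 23. The 59 regions were also wider than usual, with a median width of 601 bp against 482 bp over all regions, and 11 of them (18.6%) were seen in 1 library only, against 16.9% of all. ETV5 thus had the sparsest surroundings, with its start site and 3 downstream regions, while each of the other genes was flanked by peaks on both sides.

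**Figure D1:**
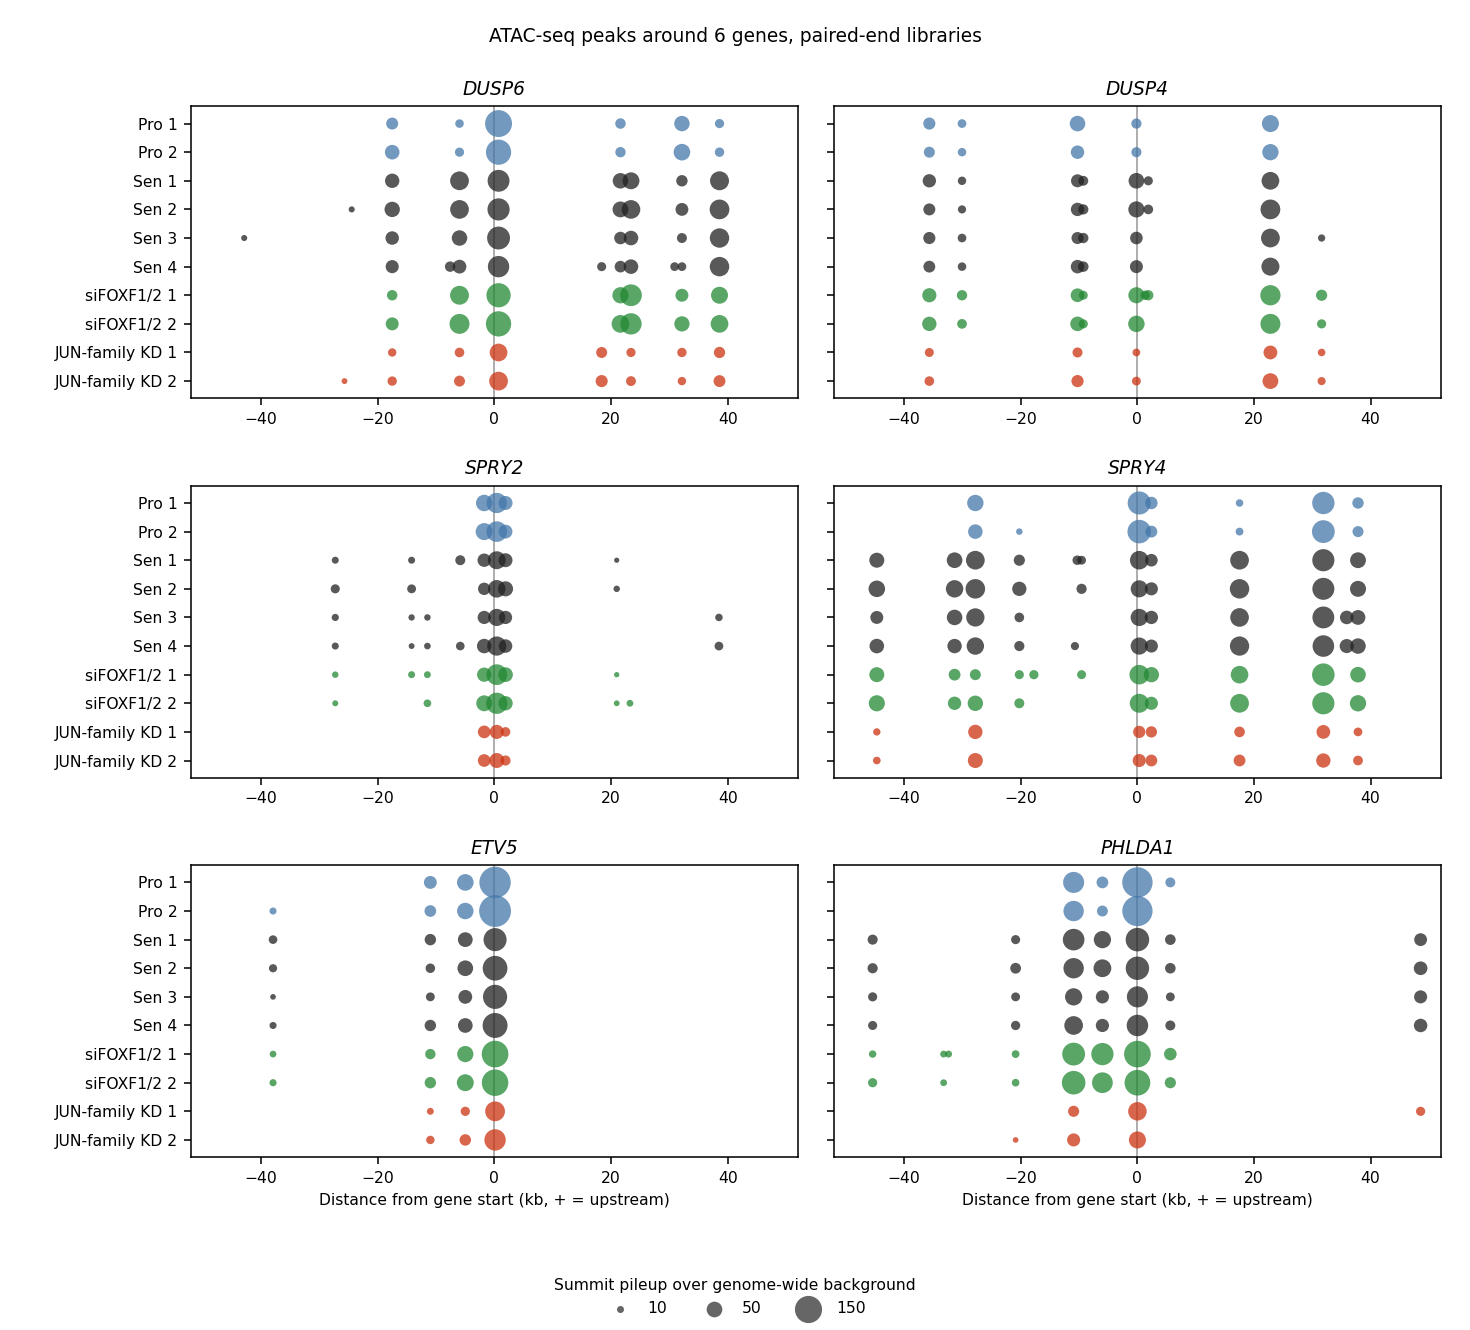
Peaks around the 6 genes in the 10 paired-end libraries: the horizontal axis is the distance from the gene start in kb (positive is upstream), each row is a library, and the area of a dot grows with its level (summit pileup over genome-wide background). Start-site dots are present in every row, and Sen and siFOXF1/2 rows hold more distal dots than Pro and JUN-family knockdown rows.

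The strongest region of a locus, taken as the one with the highest −log10 q in the weakest of the 4 Sen libraries, was the start site at ETV5, PHLDA1 and SPRY2. At DUSP6 it was the region 38.6 kb upstream (chr12:89784219-89785578), at SPRY4 the region 31.9 kb upstream (chr5:141735987-141737046) and at DUSP4 the region 22.8 kb upstream (chr8:29230458-29231717). The lowest −log10 q of these 6 regions over the Sen libraries ranged from 78.7 at SPRY2 to 201 at ETV5. These values are the authors' own, from their peak caller, and serve here to rank peaks within a list.

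Comparing Sen with Pro asks how chromatin around the feedback genes differs between Ras-induced senescence and proliferation. At the start sites of DUSP6, SPRY4, ETV5 and PHLDA1, all 4 Sen libraries had lower levels than both Pro libraries, on each of the 3 scales. Among the 26 kept regions of either kind 6 were lower and 2 higher by that criterion, against 24.9% and 12.5% of all kept regions, which puts the share lower near the background. At DUSP4 the start site was instead higher in every Sen library by background or kept-region scaling, while with the deposited fold enrichment the groups overlapped. Of the 38 regions with a peak in every Sen library, 9 were opened, none of them a start site, against 26.1% of all such regions. None of the 26 regions with a peak in both Pro libraries was closed, against 3.96% of all such regions. The groups of 2 and 4 libraries allow no exact permutation p below 0.133, so none of these differences can pass a threshold of 0.05.

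The number of peaks at the 6 loci was 28 and 30 in the Pro libraries and 43, 42, 45 and 53 in the Sen libraries, a mean of 29.0 ± 1.41 (SD, n = 2) against 45.8 ± 4.99 (SD, n = 4). The whole Sen lists were longer too, and the share of a list at the loci was 0.0429% and 0.0452% in Pro and 0.0408 to 0.0521% in Sen. The opened share of 9 in 38 regions (23.7%, 95% Wilson interval 13.0 to 39.2%, counting error over regions only) was about the background share. With Sen replicates 1 and 2 alone, or with replicates 3 and 4 alone, 12 of 41 regions were opened (29.3%, against 33.4% and 30.6% of all regions) and none was closed. With all lists shortened to the 65281 most significant peaks, 4 of 25 regions were opened (16%, against 14.9% of all regions in that setting) and 1 of 26 was closed (3.85%, against 13.8%). In that setting the difference in mean peak number at the loci was 2, against 16.75 with the full lists.

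ETV5 had the highest start-site level of the 6 genes in Pro. Its start-site region (chr3:185826324-185827714) stood at 200.3 and 206 in the Pro libraries and at 108, 124, 119 and 127 in the Sen libraries. The groups did not overlap, and the log2 difference relative to all kept regions was −0.60. PHLDA1 was nearly as high, at 188 and 187 in Pro and 113, 112, 90.6 and 93.9 in Sen (chr12:76424739-76426406, log2 difference −0.71). In this gene Sen replicates 1 and 2 lay above replicates 3 and 4, and all 4 lay well below Pro.

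The DUSP6 start site, a region of 2560 bp at chr12:89745732-89748291, had levels of 148 and 129 in Pro and 97.5, 100.03, 107 and 92.7 in Sen, with a log2 difference of −0.31. The SPRY4 start site (chr5:141703732-141706159) had 108 and 113 in Pro and 70.3, 59.2, 60.5 and 60.01 in Sen, with a log2 difference of −0.65. Both genes encode inhibitors of the pathway, and neither showed overlap between the groups. At SPRY2 the levels were 83.8 and 86.5 in Pro and 65.4, 62.8, 59.9 and 75.2 in Sen (chr13:80915193-80915797). That difference (−0.20 on the log2 scale) left no overlap by background scaling, but the groups overlapped once scaled on kept regions or by deposited fold enrichment.

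DUSP4, which encodes the nuclear phosphatase, had the weakest start site in Pro, at 21.2 and 20.7. In the Sen libraries its level was 49.9, 53.2, 32.4 and 34.3 (chr8:29207332-29208886), a log2 difference of 1.16 relative to all kept regions. Every Sen library was above both Pro libraries, with replicates 1 and 2 clearly above replicates 3 and 4. On both scales of the level, the start sites of the 2 ERK phosphatase genes thus differed in opposite directions, while on the deposited fold enrichment DUSP4 overlapped between groups.

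**Figure D2:**
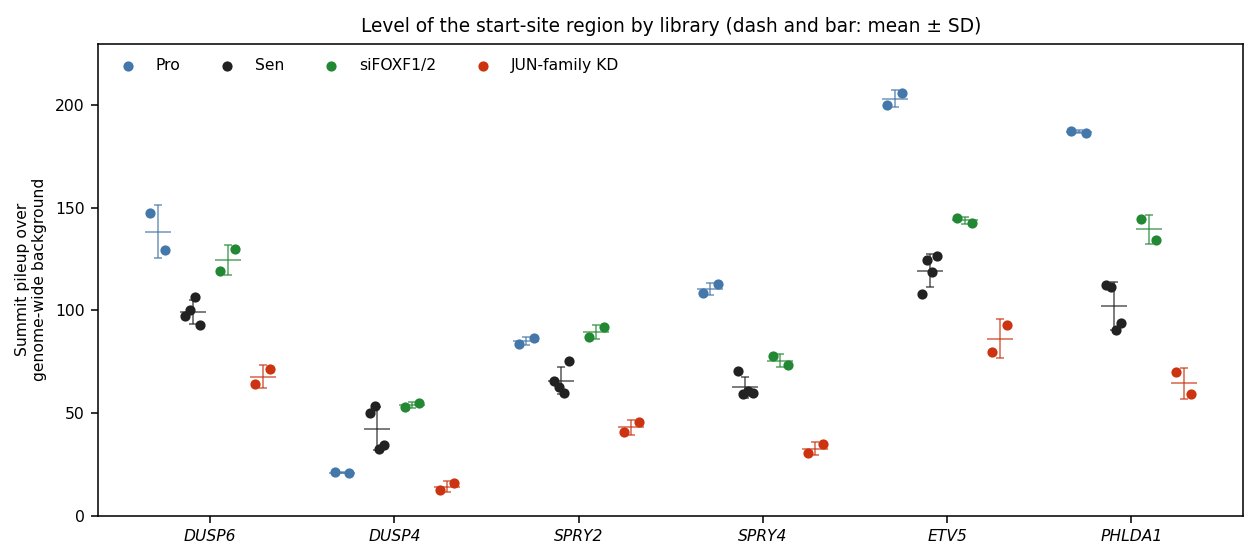
Level of the start-site region (vertical axis, summit pileup over genome-wide background) of each gene in the 10 paired-end libraries, coloured by group, with a dash at the mean and a bar of ± 1 SD. On this scale Pro lies above Sen at 5 genes (SPRY2 overlaps on the other scales) and below it at DUSP4, and the JUN-family knockdown is the lowest group at all 6, although after scaling on kept regions it lies above Sen at DUSP6 and ETV5.

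By level over background, 9 of the 20 kept distal regions were higher in every Sen library (22.4% of all kept regions), the reverse of most start sites. By deposited fold enrichment that contrast was absent. On that scale 10 of the 20 kept distal regions were lower (38.7% of all kept regions) and 2 higher (15.5%), and 4 of the 6 start sites were lower. The largest difference among kept regions was at SPRY4, 17.5 kb upstream (chr5:141721526-141722767), with levels of 11.5 and 12.6 in Pro and 71.3, 77.2, 70.7 and 75.6 in Sen and a log2 difference of 2.79. The region 38.6 kb upstream of DUSP6 followed, at 17.2 and 18.2 in Pro and 73.02, 79.2, 76.5 and 77.2 in Sen, a log2 difference of 2.28. Those were the 2 member regions with every Sen library above every Pro library on all 3 scales. Inside the downstream side of DUSP6, 6.0 kb from its position, the level was 14.9 and 17.2 in Pro and 71.6, 71.2, 48.7 and 38.6 in Sen, a log2 difference of 1.97, and there the groups overlapped by deposited fold enrichment, which divides by the local background.

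The 9 opened regions lay at 5 of the 6 genes, with 3 at PHLDA1, 2 each at SPRY2 and SPRY4, 1 each at DUSP6 and DUSP4, and none at ETV5. The highest Sen levels among them were at DUSP6, 23.4 kb upstream (chr12:89769384-89770054), with 58.2, 70.8, 43.2 and 43.3. At SPRY4 the region 31.3 kb downstream (chr5:141673074-141673501) had 49.9, 61.6, 49.1 and 42.1, and the region 44.7 kb downstream (chr5:141659576-141660329) had 45.8, 55.6, 34.02 and 43.3. A site with a high local background needs a higher summit to be listed, so the level that could have gone unlisted in Pro was estimated at each region from the local background of the listed peaks. On that basis the Sen levels were at least 2.69-fold higher at the DUSP6 region, 3.04-fold at the SPRY4 region 44.7 kb away and 2.16-fold at the SPRY4 region 31.3 kb away, relative to all kept regions.

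The PHLDA1 regions opened in Sen lay 45.4 kb and 20.9 kb downstream and 48.6 kb upstream, and the last (chr12:76473859-76474399) had levels of 33.4, 38.01, 34.7 and 37.02. The DUSP4 region 9.3 kb downstream (chr8:29198820-29199185) had 19.98, 21.2, 21.6 and 22.6, with little spread between the libraries. The 2 SPRY2 regions, 27.3 kb and 14.2 kb downstream, were the faintest, at means of 11.8 ± 3.31 and 10.3 ± 3.997 (SD, n = 4). For the SPRY2 region 14.2 kb downstream, the lowest Sen level was below what could have gone unlisted in Pro, so no fold bound can be given. The 3 regions of DUSP6 and SPRY4 and the PHLDA1 region 20.9 kb downstream were the 4 still called opened with lists of equal length.

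Of the 26 kept regions, 10 had every Sen library below both Pro libraries (background 41.0% of kept regions) and 10 had every Sen library above them (background 22.4%). Relative to all kept regions these counts were 7 lower (31.0%) and 12 higher (31.1%), and by deposited fold enrichment they were 14 lower (38.7%) and 2 higher (15.5%), so the number of higher regions rests on the scale. The median log2 level difference of the 26 regions was −0.03 and that of all kept regions −0.18. For the 6 start sites the median was −0.62, and for the 20 distal regions it was 0.18, all before scaling on kept regions. Besides the 4 start sites, 2 distal regions were lower in Sen on all 3 scales. At 1.7 kb downstream of SPRY2 (chr13:80913057-80913627) the level was 55.1 and 59.1 in Pro and 36.5, 31.2, 35.3 and 42.9 in Sen, with a log2 difference of −0.48. At 32.2 kb upstream of DUSP6 (chr12:89777865-89779042) the level was 48.2 and 56.1 in Pro and 26.5, 33.6, 20.3 and 15.6 in Sen, with a log2 difference of −1.001. That region lies between the opened region at 23.4 kb and the kept region at 38.6 kb, both with more signal in Sen, so neighbouring sites of DUSP6 differed in opposite directions.

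**Figure D3:**
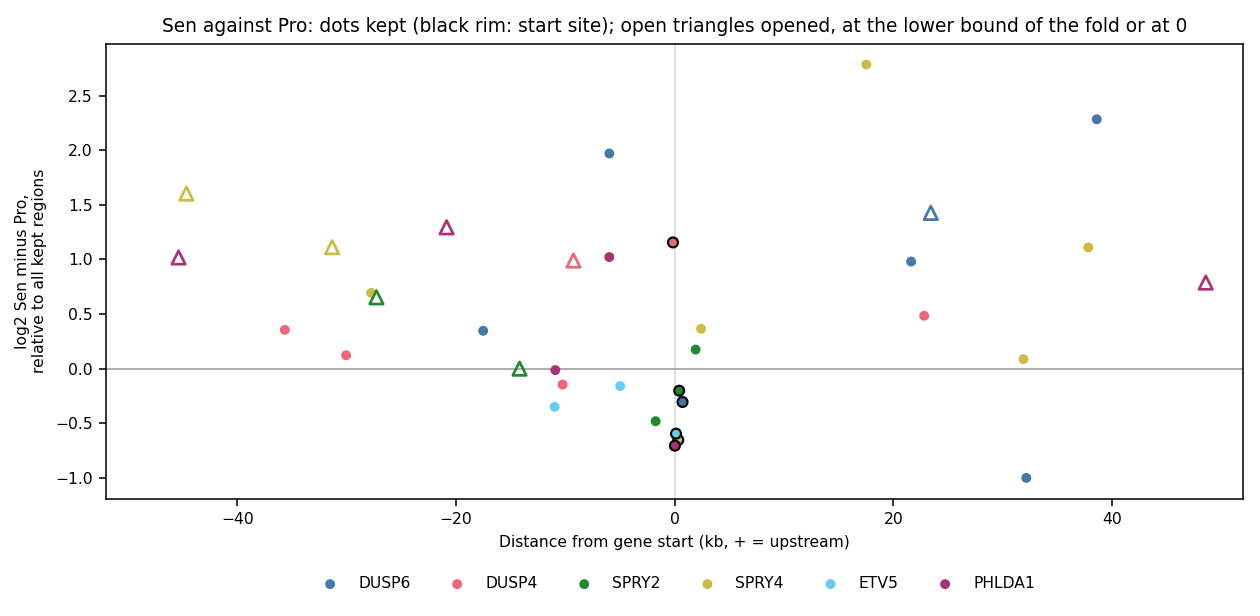
Difference between Sen and Pro (vertical axis, log2, relative to all kept regions) against the distance of the region from the gene start (horizontal axis, kb, positive is upstream) for the 26 kept regions (dots, start sites rimmed in black) and the 9 opened regions (open triangles at the lower bound of the fold, or at 0 where there is none). Start sites other than DUSP4 lie below 0, while distal dots reach 2.79 at SPRY4.

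A ratio within each library does not depend on how libraries are scaled to each other. Over the 6 start sites and the 17 distal regions listed in all 10 libraries, the geometric mean level of the start sites was 2.68 and 2.70 times that of the distal regions in the Pro libraries. It was 1.63, 1.59, 1.66 and 1.67 times in the Sen libraries. Every Sen library, from either naming style, was below both Pro libraries. This ratio was 2.06 and 1.82 in siFOXF1/2 and 1.91 and 1.76 in the JUN-family knockdown, all between the Sen and Pro values. The ratio was chosen after the values had been seen and is given as a description. It was not computed for other genes, so whether it is particular to these loci was not tested.

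The siFOXF1/2 libraries ask what depends on the forkhead transcription factors FOXF1 and FOXF2 in senescent cells, and they are set against the same Sen libraries. At the 6 loci 36 regions were kept, 1 of 38 was closed, against 8.10% of all regions, and 1 of 40 was opened, against 9.70%. The closed region and the opened region were both at PHLDA1. Among kept regions, levels at 4 distal sites, those 9.3 kb downstream of DUSP4, 27.3 kb downstream of SPRY2, and 20.9 kb and 6.0 kb downstream of PHLDA1, differed from Sen without overlap on all 3 scales. The first 3 of these were lower (5.37% of all kept regions) and the PHLDA1 region at 6.0 kb was higher (12.4%).

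The share closed was 2.63% (Wilson interval 0.466 to 13.5%) and the share opened 2.5% (0.443 to 12.9%). The low share closed depended on the setting. It was 3 of 37 (8.11%, against 8.78% of all regions) with lists of equal length, where regions 27.1 kb downstream of SPRY2 and 20.2 kb downstream of SPRY4 were closed too. It was 3 of 28 (10.7%, against 10.3%) where a peak had to cover 50% of a region, and 3 of 41 (7.32%, against 12.6%) with Sen replicates 3 and 4 alone. The opened regions numbered 3 of 40 (7.5%, against 12.3%) with Sen replicates 1 and 2 alone and 2 of 40 (5%, against 16.0%) with replicates 3 and 4 alone. The closed region was that 48.6 kb upstream of PHLDA1, at 33.4, 38.01, 34.7 and 37.02 in Sen and unlisted in both knockdown libraries, at least 1.97-fold lower relative to all kept regions. The opened region, 33.2 kb downstream (chr12:76392053-76392639), was faint in siFOXF1/2, at 9.57 and 9.34. Without siFOXF1/2 replicate 2, 4 of 46 regions were opened (8.70%), and without replicate 1, 2 of 38 were closed (5.26%). No share over all regions was computed with a library left out, so these counts show only how the calls move. Peak numbers at the loci, 47 and 43, fell within the Sen range.

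At PHLDA1, 6.0 kb downstream (chr12:76418143-76420996), the levels were 60.6, 64.4, 35.3 and 35.5 in Sen and 101 and 87.2 in siFOXF1/2, a log2 difference of 0.72 relative to all kept regions. Both knockdown libraries exceeded every Sen library, including replicates 1 and 2. The site is a broad region of 2854 bp. The PHLDA1 region 20.9 kb downstream (chr12:76404300-76405077) instead had 16.9, 23.6, 16.03 and 17.5 in Sen and 12.2 and 11.9 in siFOXF1/2, a log2 difference of −0.87. The corresponding differences were −0.62 at the DUSP4 region and −0.84 at the SPRY2 region.

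SPRY4 had the region with the largest difference. At 27.8 kb downstream (chr5:141676510-141677184) the levels were 71.3, 77.6, 68.03 and 61.6 in Sen and 24.5 and 48.3 in siFOXF1/2, a log2 difference of −1.29. The 2 knockdown libraries lay far apart there, and the groups overlapped by deposited fold enrichment. The SPRY4 region 31.3 kb downstream was also lower, at 28.3 and 36.3 in siFOXF1/2 (log2 difference −0.92), though by deposited fold enrichment the siFOXF1/2 libraries were the higher ones. At 17.5 kb upstream of SPRY4 the levels in siFOXF1/2, 63.1 and 71.6, overlapped those in Sen by background scaling and were lower relative to all kept regions (log2 difference −0.41).

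DUSP6 showed differences in both directions. The region 17.5 kb downstream (chr12:89728427-89729125) had 42.02, 48.01, 36.96 and 35.1 in Sen and 22.2 and 34.3 in siFOXF1/2 (log2 difference −0.82, with the opposite order by deposited fold enrichment). The region 23.4 kb upstream had 96.04 and 92.4 in siFOXF1/2, above every Sen library (log2 difference 0.56), with overlap by deposited fold enrichment. At the DUSP6 start site the level was 119 and 129.8, a log2 difference of only 0.05 relative to all kept regions.

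Before that centring, 18 of the 36 kept regions had both siFOXF1/2 libraries above every Sen library (background 46.1%) and 7 had them below (8.77%). Relative to all kept regions, the counts became 3 higher (21.6%) and 13 lower (21.4%), all 13 of them distal. The start sites of SPRY2, SPRY4, ETV5, DUSP6 and PHLDA1 were among those higher by background scaling, and only that of PHLDA1 stayed above Sen after centring. By deposited fold enrichment 8 regions were higher (23.8%) and 5 lower (13.0%). On that scale the PHLDA1 start site overlapped Sen, that of SPRY4 was lower and that of DUSP4 higher. The median log2 difference before centring was 0.25 for the 36 regions and 0.28 for all kept regions.

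The JUN-family knockdown asks what depends on the JUN proteins, which form the AP-1 transcription factor. It is set against the same Sen libraries, which all 3 paired-end comparisons share. In the knockdown 11 of the 38 regions listed in every Sen library were closed, against 31.6% of all regions, and none of 27 was opened, against 5.91%. The closed regions were spread over all 6 genes and none was a start site. Among the regions that were kept, the DUSP4 start site and 6 distal regions of DUSP6, SPRY2 and SPRY4 had lower levels than every Sen library on all 3 scales. These were 7 of 25 kept regions, against 21.5% of all kept regions, and none was higher on all 3, against 0.933%. The lists of the knockdown were also shorter, with 60156 and 62734 peaks against 98705 to 102958 in Sen.

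The closed share was 28.9% (Wilson interval 17.0 to 44.8%), close to the background. Peak numbers at the loci were 30 and 33, a mean of 31.5 ± 2.12 (SD, n = 2) against 45.8 ± 4.99 (SD, n = 4) in Sen. As a share of the whole list they were not lower, at 0.0478% and 0.0549% against 0.0408 to 0.0521% in Sen. With every list shortened to its 60156 most significant peaks, 2 of 24 regions (8.33%, against 15.2% of all regions in that setting) remained closed, 21.6 kb upstream of DUSP6 and 31.3 kb downstream of SPRY4, and 3 of 27 were opened (11.1%, against 15.0%). The opened calls in that setting were at DUSP6 (18.4 kb upstream), SPRY4 (2.6 kb upstream) and DUSP4 (31.6 kb upstream).

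The SPRY4 region 31.3 kb downstream had 49.9, 61.6, 49.1 and 42.1 in Sen and no peak in either knockdown library, a level at least 1.19-fold lower relative to all kept regions. The DUSP4 regions 9.3 kb and 30.1 kb downstream had 19.98, 21.2, 21.6 and 22.6 and 14.5, 13.6, 15.4 and 14.8 in Sen and were at least 1.17-fold and 1.09-fold lower. The PHLDA1 region 45.4 kb downstream (chr12:76379518-76380827), at 20.7, 21.2, 17.01 and 16.8 in Sen, was at least 1.17-fold lower. Before scaling on kept regions these 4 bounds were 1.92, 1.91, 1.82 and 1.77. For the other 7 closed regions no bound above 1 was reached relative to all kept regions: PHLDA1 6.0 kb downstream and 5.7 kb upstream, DUSP6 21.6 kb upstream, SPRY2 27.3 kb and 14.2 kb downstream, SPRY4 20.2 kb downstream and ETV5 38.0 kb downstream.

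Kept regions show the difference with measured levels on both sides. The SPRY4 region 44.7 kb downstream stood at 45.8, 55.6, 34.02 and 43.3 in Sen and 11.04 and 11.9 in the knockdown, a log2 difference of −1.15 relative to all kept regions. It was the largest among the 25 kept regions, and the groups were far apart. The DUSP6 region 23.4 kb upstream stood at 58.2, 70.8, 43.2 and 43.3 in Sen and 17.2 and 19.9 in the knockdown (log2 difference −0.72). The SPRY4 region 37.8 kb upstream (chr5:141742195-141742722) stood at 50.97, 52.01, 44.5 and 48.7 in Sen and 15.6 and 19.4 in the knockdown (log2 difference −0.70). Neither showed overlap on any of the 3 scales.

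DUSP6 6.0 kb and 17.5 kb downstream and SPRY2 1.9 kb upstream completed the 6 distal regions, with log2 differences of −0.59, −0.54 and −0.21. The DUSP4 start site had 12.3 and 15.9 in the knockdown, below the lowest Sen library, with a log2 difference of −0.77. The SPRY4 region 17.5 kb upstream had 23.05 and 28.3 (log2 difference −0.74) and the DUSP6 region 38.6 kb upstream 25.97 and 28.8 (log2 difference −0.69), each with overlap by deposited fold enrichment. Their levels in the Pro libraries, given above, were lower than those of the knockdown.

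Unlike DUSP4, none of the other 5 start sites was below Sen on all 3 scales. Their levels in the knockdown were 63.95 and 71.6 at DUSP6, 40.6 and 45.7 at SPRY2, 30.5 and 34.8 at SPRY4, 79.5 and 92.99 at ETV5 and 69.8 and 59.2 at PHLDA1, each below every Sen library by background scaling. Relative to all kept regions, which themselves had a median log2 difference of −0.79, the DUSP6 and ETV5 start sites were higher than Sen (0.24 and 0.32 on the log2 scale), and SPRY2, SPRY4 and PHLDA1 overlapped it. By deposited fold enrichment the SPRY4 start site was also below every Sen library, while those of DUSP6, SPRY2, ETV5 and PHLDA1 overlapped Sen. In all, 22 of the 25 kept regions were below every Sen library (background 83.8%) and none was above (2.05%). After centring, 11 were below (25.6%), 10 of them distal, and 5 above (24.0%). By deposited fold enrichment 10 were below (55.6%) and 4 above (3.39%). The median log2 difference before centring was −0.63 for the start sites and −1.03 for the distal regions.

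**Figure D4:**
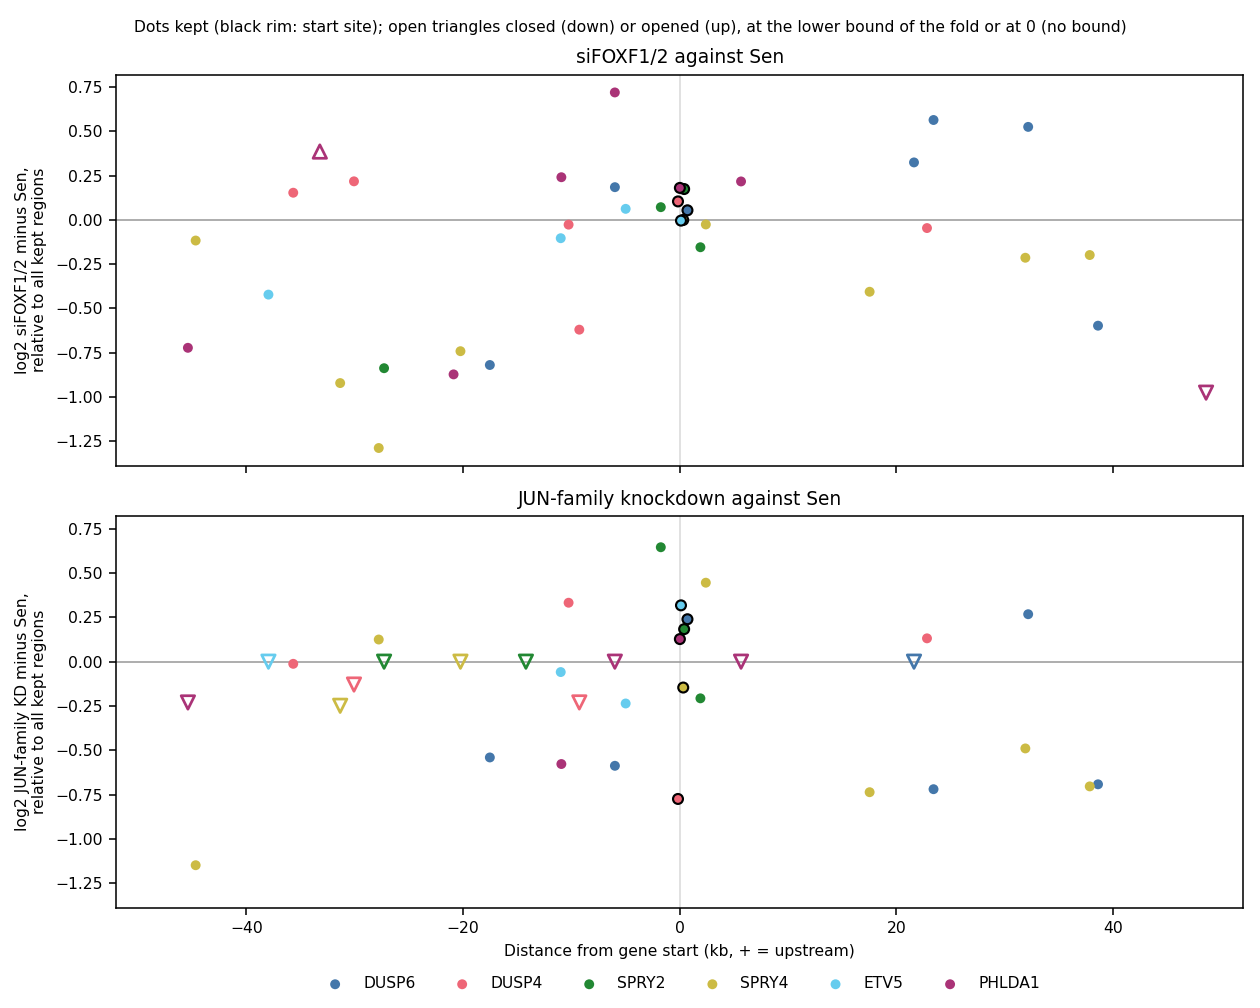
Difference from Sen (vertical axis, log2, relative to all kept regions) against distance from the gene start (horizontal axis, kb, positive is upstream) for siFOXF1/2 (upper panel) and the JUN-family knockdown (lower panel). Dots are kept regions (start sites rimmed in black) and open triangles are closed or opened regions at the lower bound of the fold, or at 0 where there is none. In the lower panel the DUSP4 start site lies at −0.77, apart from the other start sites.

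The single-end libraries compare sip300/CBP, aimed at the histone acetyltransferases p300 and CBP, and sip65, aimed at the p65 subunit of NF-kB, with their own 2 Sen libraries. Peaks were fewer, and 40 of the 43 regions overlapped a paired-end region. The 17 regions listed in both single-end Sen libraries all did. Start-site regions were listed in all 6 libraries at DUSP6, ETV5 and PHLDA1, while a start-site region of SPRY4 was listed in 1 library. Groups of 2 libraries allow no two-sided exact permutation p below 0.333.

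**Figure D5:**
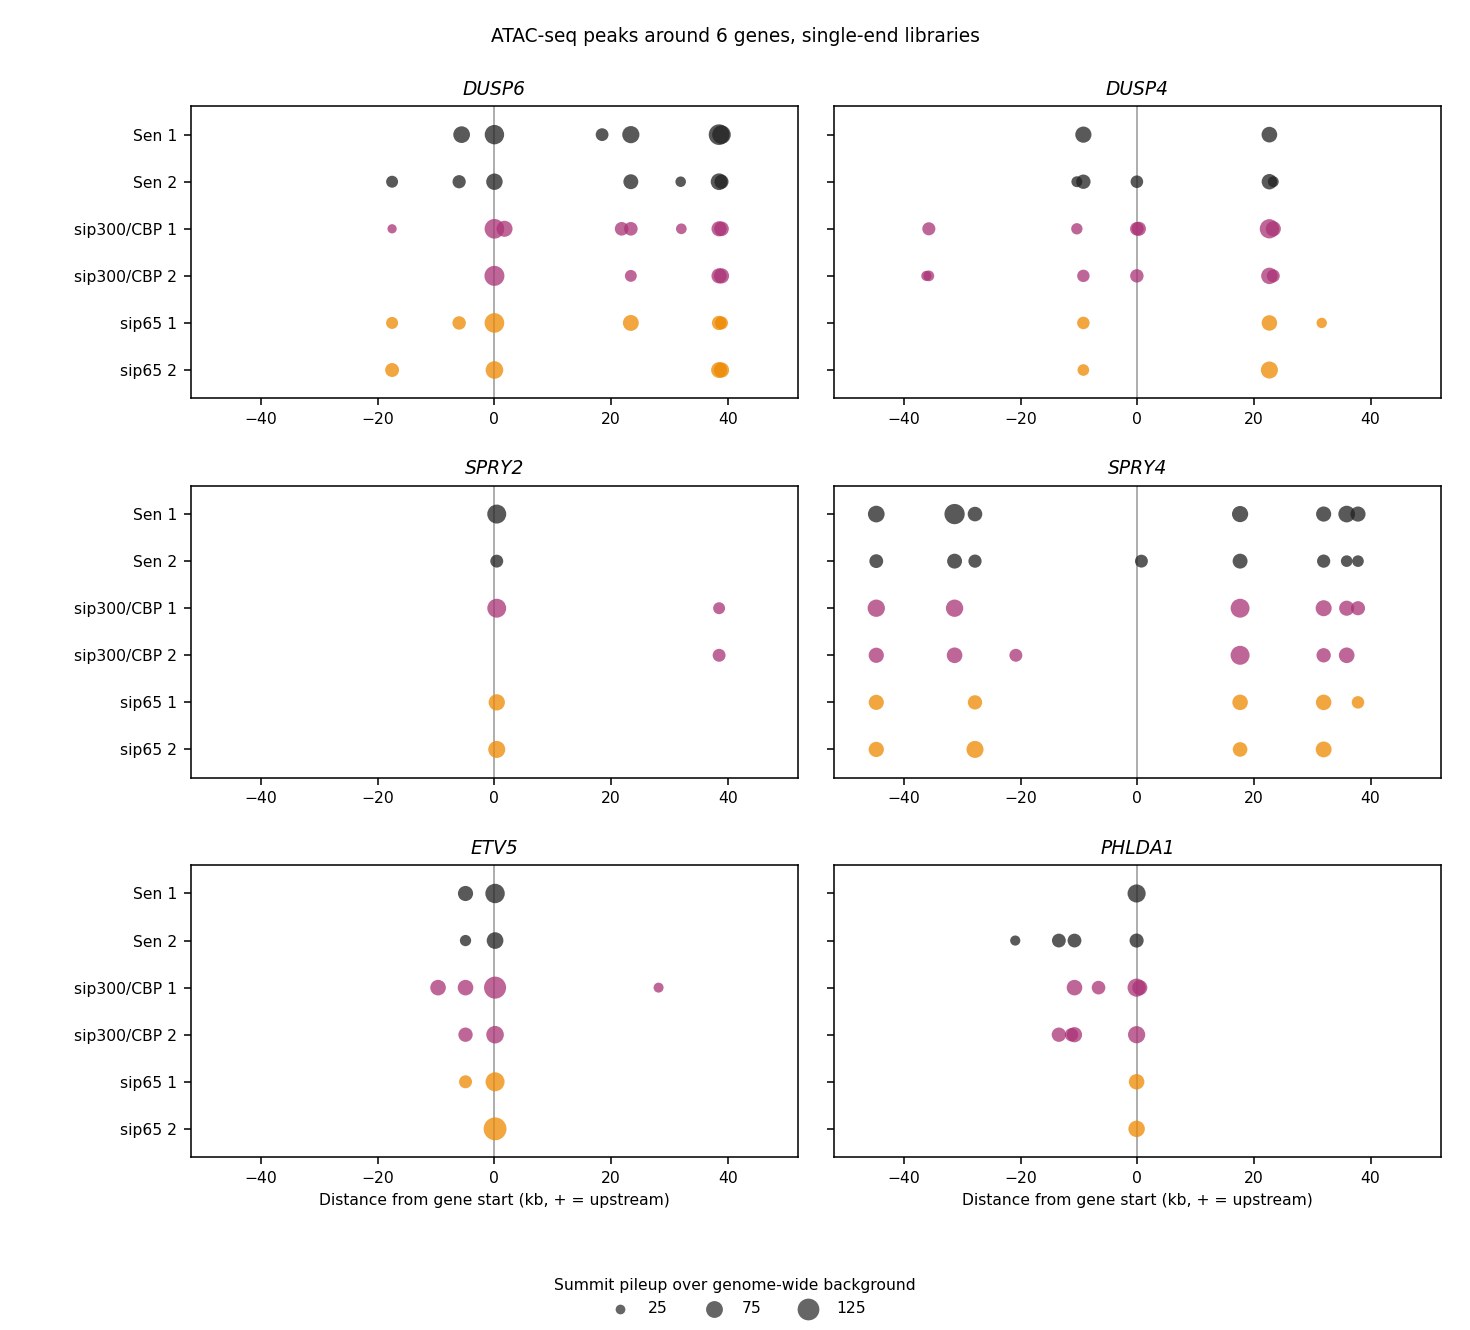
Peaks around the 6 genes in the 6 single-end libraries, drawn as for the paired-end libraries: distance from the gene start in kb on the horizontal axis, 1 row per library, dot area by level. The DUSP6, ETV5 and PHLDA1 start sites are present in every row, and the 2 sip65 rows hold the fewest dots, 19 and 13 peaks.

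In sip300/CBP the loci held 32 and 24 peaks, against 22 and 27 in Sen. Of 17 regions listed in both Sen libraries 1 was closed (5.88%, against 17.4% of all regions), and of 18 listed in both knockdown libraries 2 were opened (11.1%, against 13.1% of all). The closed region lay 27.8 kb downstream of SPRY4, and the opened ones 38.5 kb upstream of SPRY2 and 35.7 kb downstream of DUSP4. Both opened sites overlapped regions listed in paired-end Sen libraries, so opened here holds for the single-end lists only. The DUSP4 site had 36.2, 29.2, 30.1 and 28.4 in the paired-end Sen libraries, and the SPRY2 site 11.4 and 15.6 in replicates 3 and 4. For the closed region no bound above 1 was reached relative to all kept regions. With lists of equal length none of 14 regions was closed (against 17.3% of all) and 4 of 14 were opened (28.6%, against 15.8%). Leaving out sip300/CBP replicate 2 made it 10 of 30 regions opened (33.3%), and leaving out Sen replicate 1 made it 5 of 27 closed (18.5%). Here and below, counts with a library left out have no share over all regions to set beside them. Among the 13 kept regions, 2 had lower levels than both Sen libraries (background 5.52%) and 3 had higher levels (16.1%), but without Sen replicate 1 it was 14 of 16 that were higher, and without Sen replicate 2 it was 5 of 13 that were lower. By deposited fold enrichment 2 were lower (15.7%) and 7 higher (21.8%). On all 3 scales, 2 regions upstream of DUSP6 were lower (3.83% of all kept regions) and 1 upstream of SPRY4 was higher (8.86%). The DUSP6 start site was higher by background scaling and by deposited fold enrichment, but overlapped Sen scaled on kept regions. That of PHLDA1 was higher by deposited fold enrichment only, and that of ETV5 overlapped Sen on all 3 scales.

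The DUSP6 region 38.5 kb upstream (chr12:89784647-89784993) had 113 and 73.6 in Sen and 60.6 and 61.3 in sip300/CBP, a log2 difference of −0.72 relative to all kept regions. The DUSP6 region 23.4 kb upstream (chr12:89769425-89769961) had 78.1 and 58.9 in Sen and 49.2 and 37.5 in sip300/CBP, a log2 difference of −0.80. The SPRY4 region 17.6 kb upstream (chr5:141721918-141722562) had 69.4 and 58.9 in Sen and 94.6 and 95.4 in sip300/CBP, a log2 difference of 0.43. The 2 Sen libraries themselves differed widely at the first of these sites, and all 3 overlap paired-end regions described above with higher levels in Sen than in Pro or opened in Sen. Another DUSP6 region, 38.9 kb upstream (chr12:89785093-89785382), lies within the same paired-end region as the first. It had 91.1 and 52.6 in Sen and 56.8 and 61.3 in sip300/CBP, which overlap. Scaled on kept regions sip300/CBP was lower there, and by deposited fold enrichment it was higher.

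In sip65 the loci held 19 and 13 peaks, and the second library had the shortest list of the series, at 17880 peaks. As a share of the list these were 0.0432% and 0.0727%, against 0.0403% and 0.0399% in the single-end Sen libraries. Of the 17 regions listed in both Sen libraries 2 were closed (11.8%, against 29.6% of all regions), both at SPRY4, and none of 13 was opened (1.53% of all). The closed region 31.3 kb downstream of SPRY4 (chr5:141673182-141673389) had 108 and 58.9 in Sen, at least 1.32-fold above what could have gone unlisted in sip65 relative to all kept regions, and remained closed with lists of equal length. For the other, 35.9 kb upstream, no bound above 1 was reached. Of the 12 kept regions 2 were lower than both Sen libraries (background 8.84%) and 1 was higher (10.6%). Without Sen replicate 1, 10 of 27 regions were closed (37.0%) and 9 of 13 kept regions were higher. Without Sen replicate 2, 7 of 12 kept regions were lower. The single-end counts thus rest on single libraries, and no share over all regions was computed with a library left out.

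The 2 lower regions were the DUSP6 region 38.5 kb upstream, at 54.2 and 66.7 in sip65 (log2 difference −0.59), and the DUSP4 region 9.3 kb downstream (chr8:29198828-29199204), at 69.4 and 54.7 in Sen and 41.4 and 35.9 in sip65 (log2 difference −0.67). Both were lower on all 3 scales (6.76% of all kept regions), and none was higher (2.60%). At the adjoining DUSP6 region 38.9 kb upstream, sip65 had 44.6 and 61.6. These overlapped Sen by background scaling and were lower on the other scales. By deposited fold enrichment 4 of the 12 were lower (38.0%) and 3 higher (5.52%). The start sites of DUSP6, ETV5, PHLDA1 and SPRY2 in sip65 overlapped those of Sen by background scaling. Those of DUSP6 and PHLDA1 were among the 3 higher by deposited fold enrichment, and that of ETV5 was higher scaled on kept regions. Scaled on kept regions, 3 of the 12 regions were lower (20.6% of all) and 3 higher (19.2%), and for sip300/CBP the counts were 4 lower (21.8%) and 3 higher (22.9%) of 13.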

How the data were processed

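ATAC-seq was measured in 16 libraries, 10 read as 35-bp paired ends and 6 as 75-bp single ends, per the labels' protocols. Per the submitters' processing notes the build was hg19 and the tools were MACS2 2.1.1, deepTools 3.1.1, SAMtools 1.9 and Bowtie2 2.3.4.1, with no options stated. The authors deposited a separate narrowPeak list for every library and pooled no replicates in them. Each list gives a display score, the fold enrichment at the summit (a ratio to local background) and −log10 p and q values, as the authors deposited them, and the other deposited column is the summit offset. No list holds counts, so no count test was made, and the total depth is unknown.

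Peaks of the autosomes and chromosome X were merged into regions per layout at 1 bp of overlap (Python 3.11.15, pandas 2.3.3, numpy 2.4.6, scipy 1.17.1, statsmodels 0.14.6, matplotlib 3.10.9). Summit pileups were recovered from the fold, (pileup + 1)/(background + 1), and the Poisson p, which gave a whole number for 100% of peaks in every library (tolerance 0.002 on −log10 p, in proportion above 10). The same procedure recovered at least 99.98% of pileups on simulated data. Genome-wide background is the percentile 1 of local background. The level that could go unlisted at a region was computed from the highest local background among the listed peaks there, and the library's own peaks within 5 kb. Member regions lie within 50 kb of the gene position. A start-site region overlaps that position or is the nearest within 1 kb. The regions named were chosen by rule: the start-site region, the most significant region and the called regions of each locus, and kept regions that did not overlap on all 3 scales. Others were named after their values were seen. The members and lists were chosen with earlier results of these data known.

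The libraries of compared groups share replicate numbers. In the paired-end peak names, replicate 1 of Pro, Sen and siFOXF1/2 is e17, e18 and e19, and replicate 2 is e20, e21 and e22. The differences between replicates 1 and 2 correlated across kept regions at r = 0.07 (Sen against Pro), 0.12 (siFOXF1/2), 0.01 (JUN-family knockdown), −0.00 (sip300/CBP) and 0.01 (sip65), and no label ties the numbers to a culture or day, so libraries were not paired. Alternatives were lists of equal length, −log10 q of at least 10, a 50% overlap, a window of 25 kb, other scalings, a replicate block and leaving out each library. Promoters came from the RefSeq table of GRCh38.p14, and no coordinate was converted between builds. No hg19 annotation was used.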

Additional observations from a re-analysis of the deposited data

Results flagged for a closer look

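Of 40 values with 4 paired-end Sen libraries (the level of 38 regions, the peak number and the ratio of start-site to distal level), 2 had a library far from the other 3, where chance gives about 1 in 20. At the SPRY2 region 27.3 kb downstream, Sen replicate 2 had a level of 16.8, while the 4 libraries ranged from 9.99 to 16.8. At the SPRY4 start site, Sen replicate 1 had a level of 70.3, while the 4 ranged from 59.2 to 70.3, all below both Pro libraries. The cause of either was not tested.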

How the results depend on the processing

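Of 281 recomputed values, 232 kept their direction and stayed within their error or within 1.5 times a count. The rest follow, and their causes were not tested. Scaling on kept regions turned the median log2 difference to 0.15 for Sen against Pro and −0.026 for siFOXF1/2 and brought it to −0.15 for the JUN-family knockdown. It gave 13 lower and 3 higher regions in siFOXF1/2, 11 and 5 in the JUN-family knockdown, 4 lower in sip300/CBP and 3 higher in sip65. By deposited fold enrichment the medians were −0.28 (Sen against Pro), −0.012 (siFOXF1/2), −0.16 (JUN-family knockdown) and −0.040 (sip65), with 2 higher regions in Sen, 8 higher in siFOXF1/2, 10 lower and 4 higher in the JUN-family knockdown, 7 higher in sip300/CBP, and 4 lower and 3 higher in sip65.

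With lists of equal length, 8.33% of regions were closed in the JUN-family knockdown and 0 in sip300/CBP, and the difference in peaks per library became 2.5 in the JUN-family knockdown and 2.5 in sip65. It also went from 16.75 to 2 for Sen against Pro and from −0.75 to −6.75 for siFOXF1/2. These changes were large, although both values were counted among those that kept their direction and stayed within error. In a window of 25 kb the Sen against Pro median was −0.19, and 0 regions were closed in siFOXF1/2, sip300/CBP and sip65 and 0 opened in siFOXF1/2 and sip300/CBP. With Sen replicates 1 and 2 only, the median was 0.078 for Sen against Pro and 0.12 for siFOXF1/2; for the medians these subsets of Sen were chosen after seeing the data, as were the counts of regions that do not overlap. With a replicate block, the difference in peaks per library was 13.5 (Sen against Pro), 2.5 (siFOXF1/2, reversed from −0.75), −11.0 (JUN-family knockdown), 3.5 (sip300/CBP) and −8.5 (sip65). Whether the shared numbers pair the libraries is unknown.

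With 1 library left out, the median ranged from −0.047 to 0.0063 (Sen against Pro), 0.19 to 0.27 (siFOXF1/2), −1.06 to −0.81 (JUN-family knockdown), −0.071 to 0.44 (sip300/CBP) and −0.24 to 0.27 (sip65). The difference in peaks per library ranged from −2.75 to 1.67 in siFOXF1/2 and −0.5 to 7.5 in sip300/CBP. The share opened in sip300/CBP ranged from 11.1 to 33.3%, and that closed in sip65 from 11.8 to 37.0%. Higher regions numbered 3 to 14 in sip300/CBP and 1 to 9 in sip65, and lower ones 2 to 5 and 2 to 7. The corresponding shares over all regions were not computed. Low background coverage in the single-end libraries limits what their lists can show.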

Other observations

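At the 6 loci 3 of 59 regions (5.08%) had peaks in Sen replicates 1 and 2 and in neither replicate 3 nor 4, and 3 (5.08%) had the reverse. Of all 153040 paired-end regions these were 5473 (3.58%) and 3987 (2.61%). The SPRY4 region 35.9 kb upstream (chr5:141740436-141740608) was of the latter kind, with levels of 37.3 and 40.5 in Sen replicates 3 and 4. It was also listed in both single-end Sen libraries and both sip300/CBP libraries. The DUSP6 region 18.4 kb upstream (chr12:89764402-89764981) was listed in Sen replicate 4, at 16.8, and in both JUN-family knockdown libraries, at 24.7 and 29.8. The DUSP4 region 31.6 kb upstream (chr8:29239710-29240019) was listed in Sen replicate 3, at 10.8, in both siFOXF1/2 libraries, at 25.6 and 17.1, and in both JUN-family knockdown libraries, at 11.7 and 13.4, and in neither Pro library. With the full paired-end lists and all 4 Sen libraries these 3 regions were neither opened nor closed in any of the 3 comparisons, and they were picked after their values had been seen.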
